A study of Mus musculus with 8 samples.

Results

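The G2 and mitosis genes are 43 genes that act between the end of DNA replication and the separation of the daughter cells. They were taken by name from the 19879 named genes of 8 single-cell libraries, and all 43 were found. RNA was measured in single, sorted and frozen bone marrow progenitor cells of mice, either wild type or heterozygous for Mof (Mof -/+; the gene is also called Kat8 and encodes a histone acetyltransferase). Each genotype has 2 libraries titled HSC, for haematopoietic stem cells, and 2 titled plate2. The series' design text names 8 sorted populations, from stem cells through erythroid, granulocyte and megakaryocyte progenitors, but no label says which well of a plate2 library holds which population. The labels give no age, strain, sex or animal for a library, and nothing says that the 2 libraries of a group came from different mice, which means that a p-value here covers the spread among libraries and not surely among mice. No treatment is named, and nothing else is stated that all groups share.

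Entry into mitosis is driven by the kinase CDK1 bound to B-type cyclins. Aurora and Polo-like kinases, condensins and motor proteins then build the spindle and compact the chromosomes, and the anaphase-promoting complex with CDC20 destroys cyclin B to end mitosis. Most of these genes are transcribed in G2 and are silenced in resting cells by the DREAM complex, which binds CHR elements in their promoters, while CCAAT boxes bind the activator NF-Y. Long-term stem cells of the marrow divide rarely, whereas erythroid and granulocyte progenitors divide quickly.

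Each library was made by CEL-Seq2, which tags the 3′ end of each transcript once with a molecular barcode, so transcript counts need no correction for length. A library's table has the same set of well barcodes in every library, and only the 96 consecutive barcodes that held most of its transcripts were used. Of these 768 wells, 417 held at least 1000 transcripts and were kept, between 41 and 68 a library. The kept wells of a library held 99312 to 244299 transcripts in the HSC libraries and 419917 to 721312 in the plate2 libraries, and the median well held 1567 to 2979 and 9018 to 12531 transcripts. HSC libraries held 5136 to 6992 stem cell marker transcripts in CPM (a library's counts scaled to a common total), against 987 to 1778 CPM in plate2 libraries. In each library 2.29% to 13.6% of the transcripts lay in the other 96 barcodes. Lymphoid markers, which belong to cells no gate names, stayed at 20.1 to 110 CPM in all 8. Kat8 itself was counted 1 to 12 times a library, at 9.53 to 19.4 CPM in wild type and 4.09 to 17.7 CPM in heterozygous libraries. Its level could therefore not check the genotype, and a 3′ tag may lie outside the changed part of the gene.

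The 43 genes gave 11851 transcripts in kept wells, making up 0.219% and 0.325% of the total for wild type HSC, 0.357% and 0.122% in the heterozygous HSC libraries, 0.420% and 0.368% in the wild type plate2 libraries and 0.410% and 0.446% in the heterozygous plate2 libraries. All 4 plate2 libraries lay above all 4 HSC libraries, and the HSC libraries spread more widely than the plate2 libraries. In wells of at least 2000 transcripts the order turned in wild type cells, with a mean of 0.416% over the 2 HSC libraries and 0.395% over the 2 plate2 libraries. Only 13 and 14 wells of the wild type HSC libraries 1 and 2 reached that depth. They include position 27 of library 1 and positions 10 and 26 of library 2, which held 101, 81 and 133 member transcripts along with erythroid progenitor markers. Every plate2 library held transcripts of all 43 genes, whereas an HSC library held 35 to 42 of them. In bulk sums of this kind, fewer dividing cells and less RNA in each cannot be told apart, so the wells themselves are described further on.

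Genes of chromosome structure were the most abundant. Top2a, the topoisomerase that untangles sister chromatids, stood at 131 and 467 CPM in the wild type HSC libraries, 275 and 49.996 in the heterozygous HSC libraries, 479 and 429.8 in the wild type plate2 libraries and 414 and 474 in the heterozygous plate2 libraries. Smc4, a core subunit of condensin, stood at 151 and 194 CPM in the wild type HSC libraries, 279 and 160.0 in the heterozygous HSC libraries, 419 and 387 in the wild type plate2 libraries and 427 and 474 in the heterozygous plate2 libraries. Mki67, the coat protein of mitotic chromosomes known as Ki-67, stood at 212 and 223 CPM in the wild type HSC libraries, 489 and 80.0 in the heterozygous HSC libraries, 466 and 368 in the wild type plate2 libraries and 345 and 435 in the heterozygous plate2 libraries. Top2a and Mki67 overlapped between the sets, because 1 HSC library of one genotype or the other reached the plate2 level, while every plate2 library exceeded every HSC library for Smc4. Anp32e, a chaperone that removes the histone variant H2A.Z, stood at 70.5 and 77.6 CPM in the wild type HSC libraries, 159.7 and 105 in the heterozygous HSC libraries, 175 and 181 in the wild type plate2 libraries and 166 and 202 in the heterozygous plate2 libraries. Ncapd2, another condensin subunit, stood at 60.4 and 107 CPM in the wild type HSC libraries, 102 and 29.998 in the heterozygous HSC libraries, 76.3 and 102 in the wild type plate2 libraries and 100.5 and 119 in the heterozygous plate2 libraries. Neither gene's plate2 level exceeded that of Top2a, and Ncapd2 overlapped between the sets.

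Among the cyclin-dependent kinase genes, Cks2 led. Cks2, a small subunit that docks substrates to CDK1, stood at 50.4 and 97.0 CPM in the wild type HSC libraries, 139 and 5.0 in the heterozygous HSC libraries, 157 and 136 in the wild type plate2 libraries and 214 and 239 in the heterozygous plate2 libraries. Its relative Cks1b stood at 30.2 and 29.1 CPM in the wild type HSC libraries, 61.4 and 25.0 in the heterozygous HSC libraries, 69.4 and 52.4 in the wild type plate2 libraries and 79.8 and 116 in the heterozygous plate2 libraries. Cdk1, the kinase itself, stood at 20.1 and 165 CPM in the wild type HSC libraries, 119 and 5.0 in the heterozygous HSC libraries, 124 and 50.026 in the wild type plate2 libraries and 55.8 and 111 in the heterozygous plate2 libraries. The heterozygous HSC library 2 was lowest of all 8 for Cks2 and Cdk1, and the wild type HSC library 2 was the highest of all 8 for Cdk1. Cks1b has a near-identical copy, Cks1brt, and Tubb4b has pseudogenes, so the values of these 2 genes are uncertain. The other members with this role (Ccnb1 and Ccnb2, the B-type cyclins, and the kinase genes Plk1 and Aurka) lay between 0 and 126.2 CPM in the HSC libraries and between 20.6 and 55.5 CPM in the plate2 libraries. For these 4 genes the highest HSC library exceeded the highest plate2 library.

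The centromere and spindle genes ranged widely, with Tubb4b the fourth most abundant of all members. Cenpa, the histone that marks centromeres, stood at 111 and 165 CPM in the wild type HSC libraries, 147 and 25.0 in the heterozygous HSC libraries, 103 and 85.8 in the wild type plate2 libraries and 97.3 and 142 in the heterozygous plate2 libraries. Cenpe, a kinetochore motor, stood at 50.4 and 48.5 CPM in the wild type HSC libraries, 69.6 and 15.0 in the heterozygous HSC libraries, 104.183 and 64.3 in the wild type plate2 libraries and 118 and 87.0 in the heterozygous plate2 libraries. Cenpf, which binds kinetochores and the nuclear envelope, stood at 20.1 and 107 CPM in the wild type HSC libraries, 53.2 and 15.0 in the heterozygous HSC libraries, 115 and 85.8 in the wild type plate2 libraries and 95.8 and 75.2 in the heterozygous plate2 libraries. Within each genotype both plate2 libraries exceeded both HSC libraries for Cenpe, while Cenpf overlapped in wild type cells. Cenpa was higher in both wild type HSC libraries than in either wild type plate2 library, and overlapped in heterozygous cells. Tubb4b, a beta tubulin, stood at 171 and 262 CPM in the wild type HSC libraries, 262 and 65.0 in the heterozygous HSC libraries, 293 and 246 in the wild type plate2 libraries and 327 and 381 in the heterozygous plate2 libraries. Kif20b, a kinesin needed for the last step of cell separation, stood at 30.2 and 9.70 CPM in the wild type HSC libraries, 32.8 and 25.0 in the heterozygous HSC libraries, 99.9 and 102 in the wild type plate2 libraries and 97.3 and 114 in the heterozygous plate2 libraries. Kif11, the motor that pushes the spindle poles apart, stood at 30.2 and 19.4 CPM in the wild type HSC libraries, 45.0 and 5.0 in the heterozygous HSC libraries, 62.4 and 57.2 in the wild type plate2 libraries and 63.8 and 72.3 in the heterozygous plate2 libraries. Kif20b and Kif11 were lower in each of the 4 HSC libraries than in any plate2 library, whereas Tubb4b overlapped in wild type cells.

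The next 5 genes stood at 20.1 CPM or less in each wild type HSC library. Nusap1, which bundles spindle microtubules, stood at 20.1 and 0 CPM in the wild type HSC libraries, 0 and 5.0 in the heterozygous HSC libraries, 43.0 and 40.5 in the wild type plate2 libraries and 43.1 and 45.7 in the heterozygous plate2 libraries. Ckap2l, a spindle pole protein, stood at 20.1 and 0 CPM in the wild type HSC libraries, 32.8 and 25.0 in the heterozygous HSC libraries, 52.7 and 61.9 in the wild type plate2 libraries and 79.8 and 63.4 in the heterozygous plate2 libraries. Ckap5, a microtubule polymerase, stood at 10.1 and 0 CPM in the wild type HSC libraries, 49.1 and 25.0 in the heterozygous HSC libraries, 41.6 and 61.9 in the wild type plate2 libraries and 67.0 and 35.4 in the heterozygous plate2 libraries. Nusap1 and Ckap2l were higher in every plate2 library than in any HSC library, and Ckap5 overlapped between the sets in heterozygous cells. Aurkb, the kinase of the chromosomal passenger complex, stood at 20.1 and 9.70 CPM in the wild type HSC libraries, 4.09 and 0 in the heterozygous HSC libraries, 45.8 and 33.4 in the wild type plate2 libraries and 41.5 and 33.9 in the heterozygous plate2 libraries. Anln, the scaffold of the cytokinetic ring, stood at 0 and 9.70 CPM in the wild type HSC libraries, 8.19 and 0 in the heterozygous HSC libraries, 34.7 and 31.0 in the wild type plate2 libraries and 31.9 and 23.6 in the heterozygous plate2 libraries. Both separated the plate2 libraries from the HSC libraries without overlap.

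The nuclear envelope pair stood apart from the rest. Tmpo, a lamina-associated protein, stood at 363 and 427 CPM in the wild type HSC libraries, 242 and 195 in the heterozygous HSC libraries, 292 and 339 in the wild type plate2 libraries and 267 and 286 in the heterozygous plate2 libraries. Lbr, the lamin B receptor, stood at 101 and 67.9 CPM in the wild type HSC libraries, 86.0 and 115 in the heterozygous HSC libraries, 133 and 119 in the wild type plate2 libraries and 116 and 109 in the heterozygous plate2 libraries. Tmpo was higher in both wild type HSC libraries than in any of the other 6, and Lbr stayed between 67.9 and 133 CPM in all 8.

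The members of the remaining roles are given as sums. The checkpoint and anaphase genes (Bub1, Ttk, Cdc20, Ube2c and Cdca3) summed to 35.0 to 184 CPM in HSC libraries and 124 to 236 CPM in plate2 libraries. The 3 genes of the chromosomal passenger complex (Aurkb, Birc5 and Cdca8) summed to 9.999 to 116 and 124 to 161 CPM. The 3 cytokinesis genes (Anln, Ect2 and Kif23) summed to 30.2 to 53.2 and 67.8 to 83.4 CPM. Kif2c, a microtubule depolymerase, was the rarest member with 26 transcripts in all. The heterozygous HSC library 2 gave the lowest sum in all of these roles except cytokinesis.

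**Figure D1:**
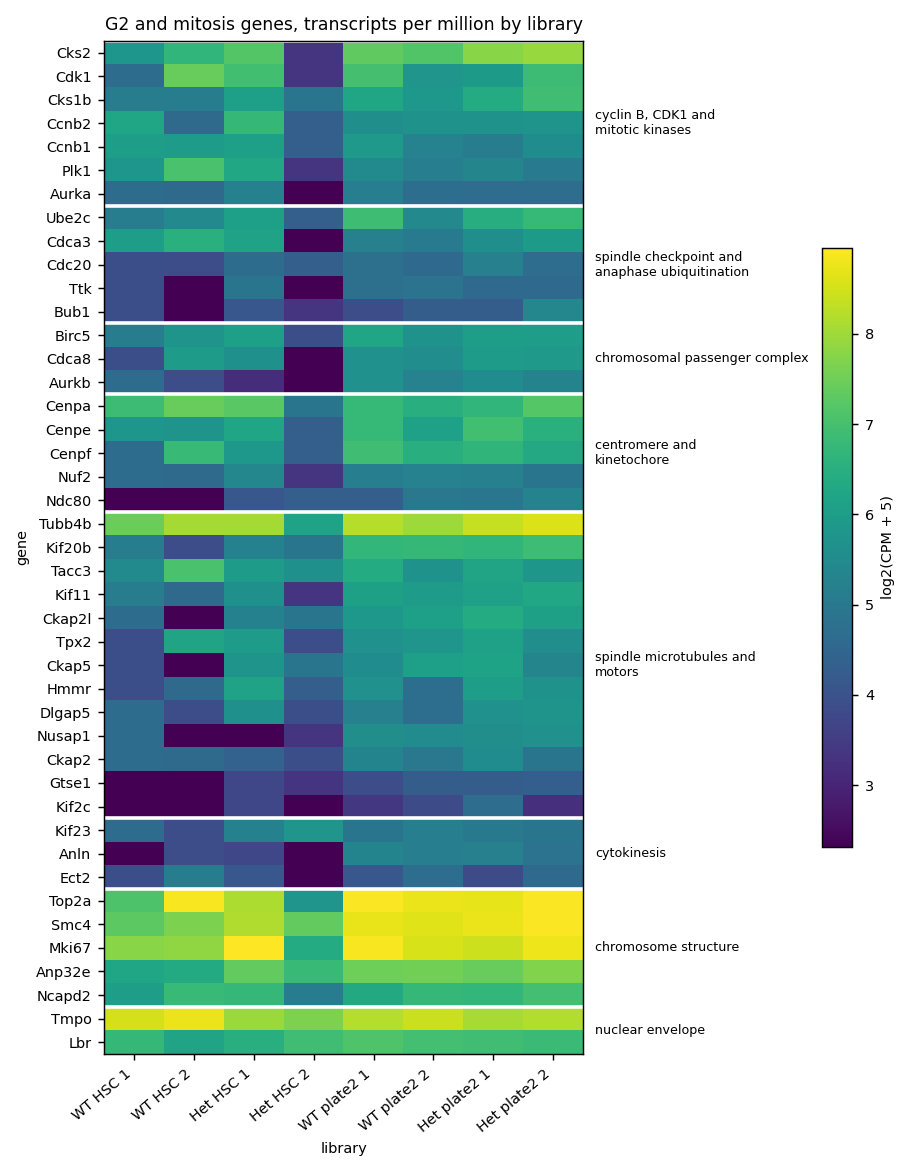
Level of each of the 43 genes (rows, grouped by role) in each of the 8 libraries (columns), as log2 of CPM plus 5. Rows of chromosome structure are bright in the 4 plate2 libraries, and the column of heterozygous HSC library 2 is the darkest of the 8, with members at 0.122% of its transcripts.

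The first comparison asked how the mixed progenitors of plate2 differ from the stem cell libraries. In wild type cells 5 members were higher in plate2 and none lower: Kif20b, Smc4, Anp32e, Ckap2l and Ckap5. In heterozygous cells 13 members were higher and none lower: Kif20b, Nusap1, Aurkb, Smc4, Cks2, Top2a, Tubb4b, Cks1b, Ckap2l, Cenpe, Anln, Kif11 and Cenpf. The test was edgeR's quasi-likelihood test with Benjamini-Hochberg adjustment over 6678 genes, of which 36 members passed the filter on low counts, and a gene passed at an adjusted p under 0.05. The background was 9.39% of all genes tested higher and 7.95% lower in wild type cells, and 11.7% and 9.99% in heterozygous cells. The fitted difference was above 0 for 30 and 33 of the 36 members, against 52.8% and 52.3% of all genes tested. Its median over those members was 0.93 and 0.86 on the log2 scale, against 0.08 and 0.05 over all genes. The 7 members that missed the filter (Bub1, Ttk, Cdc20, Ndc80, Kif2c, Gtse1 and Ect2) are low in every library, and the filter keeps a gene that is high in only 1 group, so these medians describe the tested members only. Erythroid progenitor markers also differed between the sets, at 1220 to 3237 CPM in HSC and 4117 to 5163 CPM in plate2 libraries. Mature neutrophil markers stood at 38.8 to 5390 and 114 to 2759 CPM. Late erythroid markers overlapped between the sets, at 823 to 16092 CPM in HSC and 75.0 to 2929 CPM in plate2 libraries. Wild type HSC library 1 held the 16092 CPM. The part of these markers in the differences was not tested, beyond leaving out wells holding erythroid progenitor or mature neutrophil markers.

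Kif20b differed most firmly in both genotypes, by 2.60 ± 0.58 (log2 fold change ± SE, plate2 over HSC) in wild type cells with an adjusted p of 0.00472 in edgeR's test. In heterozygous cells it differed by 2.04 ± 0.42, with an adjusted p of 0.00189 by edgeR. Smc4 differed by 1.48 ± 0.34 in wild type and 1.23 ± 0.30 in heterozygous cells, with edgeR adjusted p-values of 0.0058 and 0.00697. These 2 genes and Ckap2l passed in both genotypes, and Ckap2l differed by 2.74 ± 0.81 and 1.48 ± 0.47 with edgeR adjusted p-values of 0.0244 and 0.0285.

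Anp32e passed in wild type cells alone, at 1.52 ± 0.40 (edgeR adjusted p 0.0134), against 0.66 ± 0.31 in heterozygous cells (edgeR adjusted p 0.128). Ckap5 also passed in wild type cells alone, where the HSC libraries held 1 transcript and the plate2 libraries 56, a ratio of 9.93 with an exact counting interval of 1.71 to 399. Whether the difference of either gene depends on the genotype was tested with an interaction term, which passed for no member.

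In heterozygous cells Top2a differed by 1.62 ± 0.48 (edgeR adjusted p 0.02) and Cks2 by 1.77 ± 0.51 (edgeR adjusted p 0.0167). Cks1b, Tubb4b, Kif11, Cenpe and Cenpf differed by 1.34 ± 0.42, 1.29 ± 0.39, 1.54 ± 0.52, 1.40 ± 0.46 and 1.45 ± 0.50, with edgeR adjusted p-values from 0.0235 to 0.044. Nusap1, Aurkb and Anln rested on 1, 1 and 2 transcripts in the heterozygous HSC libraries, against 58, 49 and 36 in plate2. Their ratios were 19.7 (exact counting interval 3.41 to 793), 16.7 (2.86 to 672) and 6.13 (1.58 to 52.5). The members at the head of the mitotic cascade did not pass in either genotype: Cdk1 differed by 0.21 ± 0.74 and 0.55 ± 0.66, Ccnb1 by -0.10 ± 0.58 and 0.05 ± 0.52, and Plk1 by -1.02 ± 0.63 and -0.21 ± 0.61.

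Which libraries entered moved these counts. Without wild type HSC library 1 or 2, 2 and 1 members passed in wild type cells, against 4.36% and 2.55% of all genes higher. Without heterozygous HSC library 1, 20 of 41 passed in heterozygous cells (6.63% of all genes), and without heterozygous HSC library 2, 3 of 41 did (5.39%). Leaving out heterozygous plate2 library 1 or 2 left 5 and 3 (5.42% and 4.18% of all genes). DESeq2 called 3 of 43 members higher and 0 lower in each genotype, against 1.61% and 1.91% of all genes higher. With each well thinned to 1000 transcripts only 5 members could be tested, of which 1 and 2 passed, against 20.7% and 12.5% of all genes tested.

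In 3 of the 4 HSC libraries most of the mitotic transcripts came from a few wells whose markers go against the label. Wells with at least 5 erythroid progenitor marker transcripts of 1000 numbered 3 of 50, 3 of 46, 3 of 68 and 1 of 67 in the 4 HSC libraries (wild type 1 and 2, heterozygous 1 and 2). They held 54.8%, 68.1%, 55.9% and 4.92% of the member transcripts of their libraries. In wild type HSC library 1, the well at position 27 held 13686 transcripts against a library median of 1601, and 101 of the library's 217 member transcripts from 32 members. At 1000 transcripts it held 8 erythroid marker transcripts and 0 stem cell marker transcripts. In heterozygous HSC library 1, the well at position 60 held 19897 transcripts and 279 member transcripts from 38 members, with 18 erythroid and 0 stem cell marker transcripts of 1000. Over all 10 such wells the median was 8.5 erythroid and 0 stem cell marker transcripts of 1000, against 1 and 7 in the other 221 HSC wells. Other markers can also go against the label. In heterozygous HSC library 2, the well with the most members, at position 64, held 26 member transcripts from 18 members. Of 1000 transcripts it held 146 mature neutrophil, 2 stem cell and 0 erythroid marker transcripts, so it stayed in the comparison that follows.

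Without these 10 wells, the member share fell to 0.119% and 0.147% for wild type HSC and stood at 0.192% and 0.117% for heterozygous HSC. A single well still carried much of 2 libraries. Position 32 of heterozygous HSC library 1 held 143 of the 384 member transcripts left, with 3 erythroid and 0 stem cell marker transcripts of 1000, and without it the share was 0.128%. Position 42 of wild type HSC library 2 held 45 of 107, with 3 and 6, and without it the share was 0.0887%. Plate2 libraries were left whole, with their own wells holding erythroid markers, in this comparison, which was chosen after the wells had been seen. Each of the 10 HSC wells left out held 3 or more member transcripts of 1000, so leaving them out lowers the HSC levels by itself. The calls and p-values of this fit are therefore a description and no independent test of the members. With the 10 wells out, 22 of 33 tested members were higher in plate2 in wild type cells and 25 of 33 in heterozygous cells, none lower, by the same edgeR test. The background over 6516 genes was 14.1% higher and 9.16% lower in wild type cells, and 15.4% and 13.3% in heterozygous cells. 20 members passed in both genotypes and 6 in neither (Ccnb1, Ccnb2, Kif23, Plk1, Tacc3 and Tmpo). The median difference was 2.25 in wild type cells and 1.88 in heterozygous cells. With the 4 members at 0 in the wild type HSC libraries (Cdca3, Cdca8, Nusap1 and Hmmr) set at their lower bounds, the wild type median was 1.75.

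Top2a then stood at 84.7 and 165 CPM in the wild type HSC libraries and 140.0 and 40.5 CPM in the heterozygous ones, and differed from plate2 by 2.25 ± 0.42 and 2.49 ± 0.37 on the log2 scale (edgeR adjusted p 7.6e-04 and 6.6e-05). Mki67 stood at 60.5 and 54.9 CPM and at 230.0 and 81.0 CPM, and differed by 3.21 ± 0.49 and 1.53 ± 0.34 (edgeR adjusted p 9.4e-05 and 0.00225). For both genes every plate2 library now exceeded every HSC library. Cdk1 differed by 2.64 ± 0.69 in heterozygous cells (edgeR adjusted p 0.00681) and by 1.59 ± 0.75 in wild type cells, where it did not pass (edgeR adjusted p 0.128). Cdca8 and Nusap1, at 0 in both wild type HSC libraries, were at least 2.32-fold and at least 2.18-fold higher in wild type plate2, taken against 3 counts over the group. Tmpo differed by 0.37 ± 0.29 and 0.67 ± 0.27 and Kif23 by 1.44 ± 0.97 and -0.59 ± 0.52, and neither passed.

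**Figure D2:**
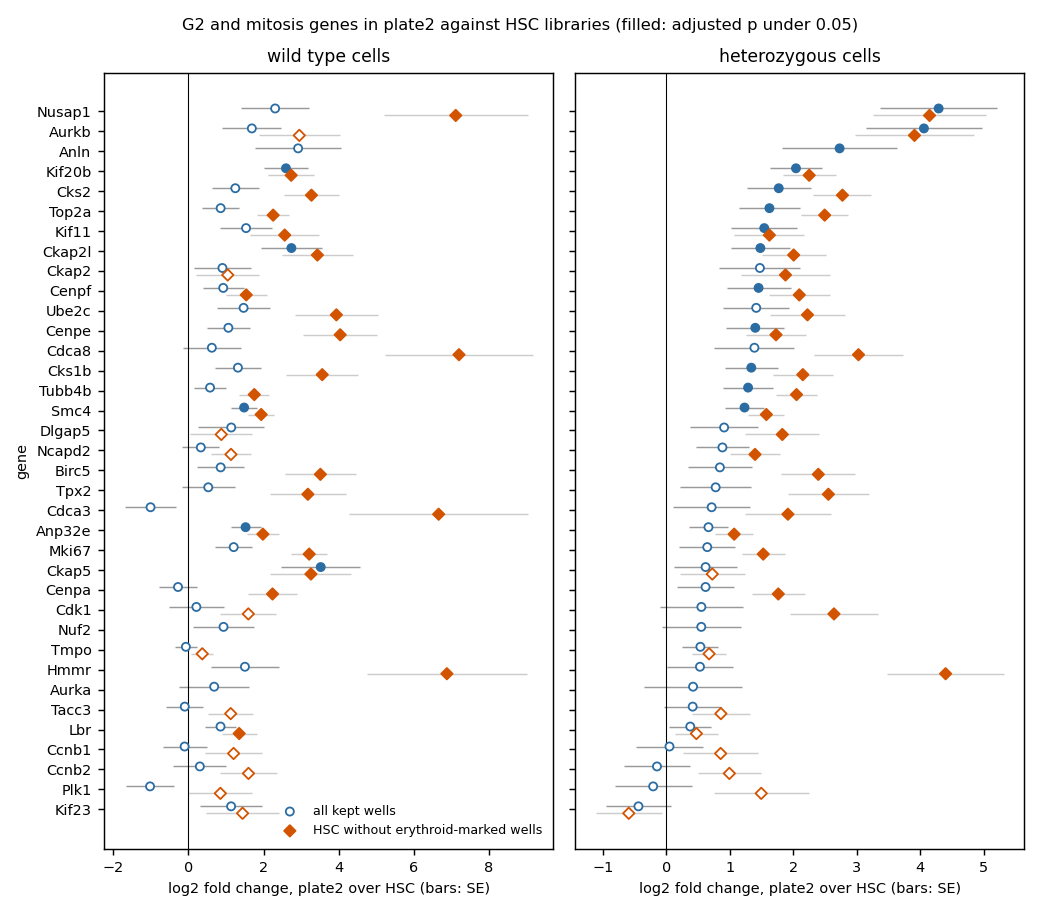
Difference of each tested member between plate2 and HSC libraries (log2 fold change on the x axis, bars are 1 SE), in wild type (left) and heterozygous (right) cells, for all kept wells (circles) and with the HSC wells holding erythroid markers left out (diamonds). Filled symbols passed at an adjusted p under 0.05, and Anln, Aurka and Nuf2 have no diamond because they missed the filter. Filled diamonds number 22 and 25, against 5 and 13 filled circles, and diamonds beyond 6 on the left belong to genes at 0 in the wild type HSC libraries, whose fitted values are no bound.

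Other cell cycle genes gave the setting. Of 48 S phase genes 45 were tested, and 11 were higher in plate2 in wild type cells and 24 in heterozygous cells, none lower, by edgeR at an adjusted p under 0.05. Hells, a chromatin remodeller of replicating DNA, differed by 3.76 ± 0.71 and 3.71 ± 0.53, and Nasp, a histone chaperone, by 2.43 ± 0.53 and 2.03 ± 0.41 (log2 fold change ± SE). Of 62 further G2 and mitosis genes 32 were tested, and 3 were higher and 2 lower in wild type cells, a share like that of all genes (9.39% and 7.95%). In heterozygous cells 10 were higher and 2 lower, against 11.7% and 9.99% of all genes. Hmgb2, a chromatin protein abundant in dividing cells, differed by 2.58 ± 0.33 and 3.45 ± 0.32. Pttg1, the securin, was lower in wild type plate2, by -2.29 ± 0.47, and Hjurp, the chaperone that loads Cenpa, by -1.20 ± 0.34. Of 8 tested brakes and D cyclins, Cdkn1c, an inhibitor of cyclin-dependent kinases, was lower in plate2 in both genotypes, by -1.86 ± 0.60 and -1.71 ± 0.55. Cdkn1b, another inhibitor, was lower in heterozygous plate2, by -1.39 ± 0.44.

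Depth differs between the sets, so each well was thinned at random to 1000 transcripts before wells were compared. A well then held at least 1 member transcript in 66.0% and 52.2% of wild type HSC wells, 70.6% and 61.2% of heterozygous HSC wells, 77.8% and 61.0% of wild type plate2 wells and 73.3% and 89.1% of heterozygous plate2 wells (libraries 1 and 2). These shares overlapped between the sets. Before thinning they were 67.4% to 88.2% in HSC and 93.3% or more in plate2 libraries. Of 9 plate2 wells holding mature neutrophil markers, 88.9% also held at least 1, at a median depth of 3026 transcripts. Mature neutrophils no longer divide, but not all of these wells are clearly mature. Position 73 of heterozygous plate2 library 1 held 6 mature neutrophil and 36 neutrophil progenitor marker transcripts of 1000, and 207 member transcripts before thinning. The share of wells with at least 1 member transcript was therefore not read above background.

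At least 3 member transcripts of 1000 separated the wells better. The share was 16.0%, 17.4%, 23.5% and 14.9% in the 4 HSC libraries and 33.3%, 24.4%, 33.3% and 56.5% in the 4 plate2 libraries. Every plate2 library lay above every HSC library, but the exact 95% binomial intervals of the nearest pair overlapped (heterozygous HSC library 1, 14.1% to 35.4%, and wild type plate2 library 2, 12.4% to 40.3%). Pooled over libraries, it was 42 of 231 HSC wells, or 18.2% (13.4% to 23.8%), and 69 of 186 plate2 wells, or 37.1% (30.1% to 44.5%). These intervals cover counting error only. The share expected over all possible draws was 11.8% to 19.7% in HSC and 30.8% to 48.9% in plate2 libraries. Without the 10 HSC wells holding erythroid markers, 32 of 221 HSC wells, or 14.5%, held 3 or more.

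The mitotic transcripts were unevenly spread over wells. The 5 wells with the most members held 35.2% to 83.3% of the member transcripts of an HSC library and 44.2% to 64.0% of a plate2 library, while holding 13.6% to 35.8% and 25.8% to 29.7% of its transcripts. The richest well of all lay at position 32 of wild type plate2 library 1, with 685 member transcripts from 42 of the 43 genes among 32712 transcripts, 2.09% of the well. It held 22.6% of its library's member transcripts. The median well held far less, 0.0719% to 0.125% of its transcripts in HSC and 0.133% to 0.252% in plate2 libraries.

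By position on the plate, wells were first grouped into blocks of 12 consecutive barcodes, as planned. In plate2 the share with at least 3 member transcripts of 1000 ran from 27.8% to 54.2% over these 8 blocks, and their counting intervals overlapped. Other groupings gave wider ranges: 15.4% to 57.1% over blocks of 8, 11.1% to 76.9% over cycles of 12 barcode numbers and 11.4% to 76.0% over cycles of 8. Cycles of 8 and of 12 are both multiples of 4 barcodes, so a pattern over cycles of 8 can partly recur in cycles of 12. In cycles of 12, places 2, 6 and 10 gave 11.1% to 15.8%, and places 4, 8 and 12 gave 53.8% to 69.2%. The other places gave 21.4% to 76.9%. The wide range over cycles of 12 therefore cannot show whether the spread is particular to cycles of 8. These shares come from 1 random draw, and those expected over all possible draws had other ranges. They ran from 24.5% to 53.2% over blocks of 12 and 19.6% to 55.3% over blocks of 8. Over cycles of 12 they ran from 18.4% to 57.1%, and over cycles of 8 from 16.2% to 67.4%. Cycles of 8 are described here because they hold more wells each than cycles of 12. In order, the 8 positions gave 59.1%, 16.0%, 55.0%, 76.0%, 45.5%, 11.4%, 22.6% and 35.3% (11 to 35 wells each). Positions 1, 3 and 4 were high and positions 2, 6 and 7 low. In the HSC libraries the same cycle gave 8.33% to 25.0%, with overlapping intervals.

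The positions also differed in markers. At position 1 the median well held 8.5 neutrophil progenitor marker transcripts of 1000, and at most 1 at any other position. Erythroid progenitor markers had medians of 6.5 and 6 at positions 3 and 4, and stem cell markers had medians of 3 at positions 6 and 7 and 1 or 0 elsewhere. Median depth was highest at position 1 (22033 transcripts) and lowest at position 8 (3699). The part of depth and of the mix of cells in the difference between positions was not tested.

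Single libraries followed this order loosely. Over positions 1, 3 and 4, wild type libraries 1 and 2 had shares of 70.0% and 37.5% with at least 3 transcripts, and heterozygous libraries 1 and 2 had 60.0% and 73.7%. Over positions 2, 6 and 7, it was 7.69% and 12.5% in wild type and 2 of 20 wells and 38.1% in heterozygous libraries. In each of the 4 libraries the first group of positions exceeded the second, and these groups were formed after the shares had been seen. Position 8 is mixed: 32 members had their highest pooled CPM there, yet its median well held 1 member transcript of 1000. In wild type plate2 library 1 the 6 wells of position 8 held 1000 member transcripts, of which 685 and 303 came from 2 wells that hold 19 and 15 erythroid marker transcripts of 1000. The other 4 wells held 2 to 5 member transcripts and 6 to 241 mature neutrophil marker transcripts of 1000.

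**Figure D3:**
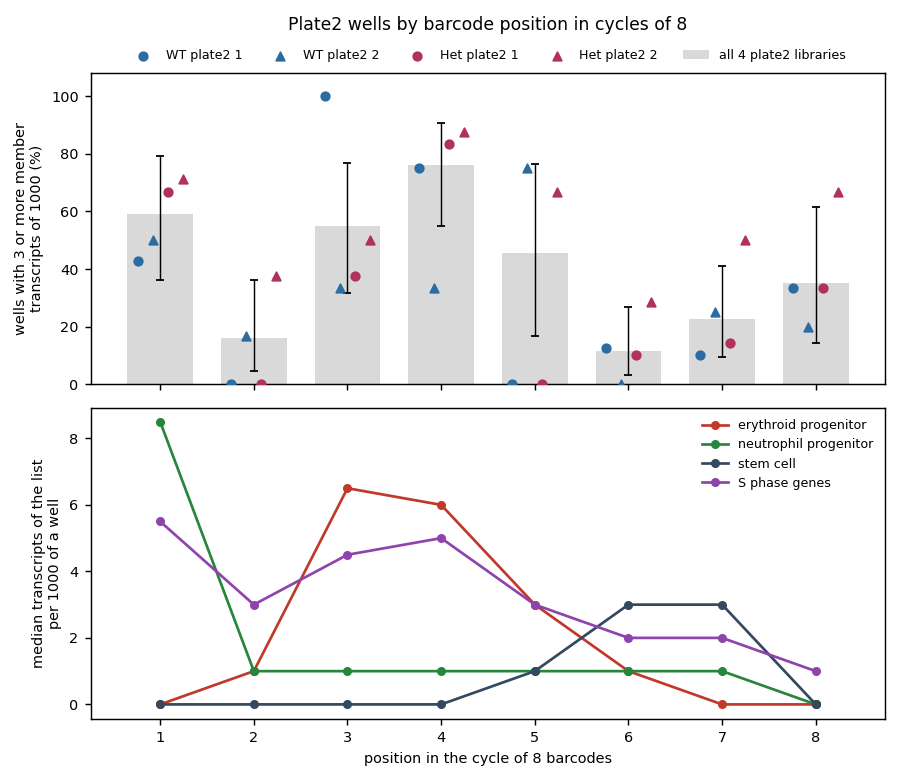
Upper panel, share of plate2 wells with 3 or more member transcripts of 1000 (y axis, percent) at each of 8 barcode positions, as a bar over all 4 libraries with its exact 95% binomial interval and a symbol for each library. Lower panel, median transcripts of 4 gene lists per 1000 of a well. The bars peak at 76.0% at position 4, where erythroid markers are also high, and fall to 11.4% at position 6, where stem cell markers are high.

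Marker genes and mitotic genes met in the same wells. Among plate2 wells holding at least 5 erythroid progenitor marker transcripts of 1000, 37 of 50, or 74.0% (exact interval 59.7% to 85.4%), held 3 or more member transcripts, against 32 of 136, or 23.5% (16.7% to 31.6%), of the other plate2 wells. Median depths were 20380 and 8929 transcripts, and 22 plate2 wells lay at 4 or 5 marker transcripts, next to the threshold. In the HSC libraries the counts were 10 of 10 and 32 of 221 wells. Wells holding stem cell markers showed the reverse: 1 of 22 in plate2, or 4.55%, and 20 of 169 in HSC libraries, or 11.8%, held 3 or more. Over all wells it was 69 of 186, or 37.1%, in plate2 and 42 of 231, or 18.2%, in HSC libraries. Wells holding neutrophil progenitor markers lay near that plate2 share, at 7 of 16. Of the 9 plate2 wells holding mature neutrophil markers, 1 held 3 or more. This was position 73 of heterozygous plate2 library 1, which also holds 36 neutrophil progenitor marker transcripts of 1000.

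Replication genes accompanied the mitotic genes. Of the plate2 wells with 3 or more member transcripts, 60 of 69, or 87.0%, also held 3 or more S phase transcripts of 1000, against 43 of 117, or 36.8%, of the others. In HSC libraries these shares were 42.9% of 42 wells and 21.7% of 189, but wild type HSC library 1 went the other way, at 25.0% of 8 wells and 31.0% of 42. Over the 186 plate2 wells, Spearman's correlation of the member transcripts was 0.47 with the S phase genes, 0.61 with the further G2 and mitosis genes, 0.50 with erythroid progenitor markers and -0.30 with stem cell markers. Over the 231 HSC wells the same correlations were 0.15, 0.22, 0.21 and -0.17. With the well's transcripts before thinning it was 0.39 in plate2, and these values are a description over wells that share libraries.

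Of 1076 genes detected in at least 10% of plate2 wells, the 10 most like the summed members over the 186 wells were Hsp90aa1, a chaperone (Spearman 0.48), Ptma (0.45), Car2 (0.44), Hmgb2 (0.42), Tuba1a (0.41), Rpl41 (0.41), Car1 (0.40), Npm1 (0.40), Ncl (0.39) and Hspe1 (0.39). Car1 and Car2 are erythroid progenitor markers, and Npm1 and Ncl are abundant nucleolar proteins. The lowest was Adgrg1, at -0.31.

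The members differed in how strictly they kept to wells rich in the other members. For each gene, plate2 wells with 3 or more transcripts of 1000 from the other 42 members were set against wells with none (60 to 69 and 45 to 52 wells for each gene, with median depths of 17471 to 20151.5 and 7810 to 8916.5 transcripts). The highest ratio computed was that of Ube2c, 23.2, which rested on 3 transcripts in the wells with none. Mki67 stood at 714 and 36.2 CPM in these wells, a ratio of 19.7. Cenpe stood at 157 and 9.37 CPM (16.8) and Cdk1 at 144 and 16.4 CPM (8.78). Birc5 (survivin), Aurkb, Ttk, Gtse1 and Kif2c were not counted in the wells with none, and were at least 15.7-fold, 9.58-fold, 4.86-fold, 3.45-fold and 2.59-fold higher in the rich wells, taken against 3 counts over those wells. The genes named in this paragraph were chosen after their values were seen.

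At the other end, Lbr stood at 144 and 103.5 CPM, a ratio of 1.39, Ckap5 at 61.5 and 43.5 CPM (1.41), Kif23 at 34.1 and 20.8 CPM (1.64) and Tmpo at 359 and 184 CPM (1.95). Tmpo was found in 88.3% of rich wells and 69.2% of wells with none, and Lbr in 72.7% and 49.0%. Ncapd2 (2.74), Anp32e (2.86) and Smc4 (3.64) lay between. In the HSC libraries the ratios were 34.0 for Mki67, 10.9 for Top2a, 3.35 for Smc4, 2.01 for Tmpo and 1.36 for Lbr. The order was not the same throughout, since Ncapd2 (5.06) lay above Smc4 there and Cks2, not counted in the wells with none, was at least 13.99-fold higher, against a ratio of 4.85 in plate2.

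Promoters were examined because the members were counted together in the same wells. RefSeq windows of GRCm38.p6, from 250 bases before to 50 after the annotated start, were found for 39 of 43 members (not Smc4, Aurkb, Tpx2 and Dlgap5). They were searched on both strands for the CHR letters TTTGAA or TTCGAA and for CCAAT. A CHR match lay in 31 of 39 members, or 79.5%, against 16.3% of 5035 tested genes with a window. CCAAT lay in 31 of 39, or 79.5%, against 42.3%, and both motifs in 27 of 39, or 69.2%, against 8.06%. Among 35 S phase genes 7 held CHR and 22 CCAAT, and among 46 further G2 and mitosis genes 29 and 32 did. The following 120 bases lie directly before the RefSeq start on the gene's own strand, with matches on either strand in capitals. They show Top2a, Cdk1, Ckap2l and Kif11, which were higher in wells rich in the other members. They also show 2 members that varied little between wells (Ckap5 and Lbr). The plate2 ratios of the first group were 5.64, 8.78, 16.2 (on 3 transcripts in the wells with none) and 4.10. Ckap2l also passed as higher in plate2 in both genotypes, and Top2a and Kif11 did in heterozygous cells.
Top2a: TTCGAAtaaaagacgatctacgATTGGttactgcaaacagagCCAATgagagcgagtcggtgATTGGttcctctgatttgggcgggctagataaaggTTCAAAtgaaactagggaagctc
Cdk1: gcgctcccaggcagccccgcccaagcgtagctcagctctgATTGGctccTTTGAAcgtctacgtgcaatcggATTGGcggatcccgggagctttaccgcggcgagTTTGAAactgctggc
Ckap2l: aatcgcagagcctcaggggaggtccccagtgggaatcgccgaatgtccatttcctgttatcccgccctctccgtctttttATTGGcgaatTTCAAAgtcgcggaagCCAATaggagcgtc
Kif11: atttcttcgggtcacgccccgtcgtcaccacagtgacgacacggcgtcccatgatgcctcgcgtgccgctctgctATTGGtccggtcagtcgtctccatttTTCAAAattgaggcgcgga
Ckap5: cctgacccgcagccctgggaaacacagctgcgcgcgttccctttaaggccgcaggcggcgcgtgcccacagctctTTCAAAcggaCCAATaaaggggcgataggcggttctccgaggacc
Lbr: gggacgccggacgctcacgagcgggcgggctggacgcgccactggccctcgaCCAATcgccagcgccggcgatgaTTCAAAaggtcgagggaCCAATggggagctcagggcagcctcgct

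These stretches lie at chr11:99024190-99024309, chr10:69352913-69353032, chr2:129297213-129297332 and chr1:181842402-181842521 on the minus strand and at chr19:37376262-37376381 and chr2:91526642-91526761 on the plus strand of GRCm38, which is mm10, the build of the submitters' processing notes. In the GENCODE annotation Lbr reaches to base 181843046 and Cdk1 to base 69352938. By that annotation the whole Lbr stretch and part of the Cdk1 stretch lie within the genes. The Top2a window holds 4 CHR and 6 CCAAT matches in all, and no other member held more than 2 CHR matches. Ckap5 and Lbr, whose ratios between rich wells and wells with none were 1.41 and 1.39, hold both motifs as Top2a and Cdk1 do. The windows of Birc5, Nusap1, Nuf2 and Tacc3 hold neither, although Birc5 was counted only in rich wells in that comparison. The median position of a match was -18.5 for CHR and -68 for CCAAT, counted in bases from the start. A match is only a run of letters and not a bound site.

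No member differed between heterozygous and wild type libraries at the threshold. In HSC libraries 0 of 36 members passed edgeR's test at an adjusted p under 0.05, and 2 had an unadjusted p under 0.05, against 10.7% of all genes. DESeq2 also called 0, and the background was 1 gene of 6678, or 0.015%. In plate2 libraries 0 passed, 0 had an unadjusted p under 0.05, against 5.21% of all genes, and DESeq2 called 0. The background was 0.539%. Over both sets with the set as a term, 0 passed, 1 had an unadjusted p under 0.05, against 5.87% of all genes, and DESeq2 called 0. The background was 0.12%. The members lay on both sides of 0: 15 of 36 were above 0 in HSC and 15 of 36 in plate2, against 51.6% and 50.1% of all genes, with medians of -0.22 and -0.07 on the log2 scale.

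The 5 members of smallest p in HSC libraries did not pass. Tmpo differed by -0.93 ± 0.31 (log2 fold change ± SE, heterozygous over wild type, 95% interval -1.53 to -0.32, edgeR adjusted p 0.322), and its 2 heterozygous libraries lay below both wild type ones. Ckap5 differed by 2.78 ± 1.21, Aurkb by -2.61 ± 1.45, Anp32e by 0.77 ± 0.44 and Top2a by -0.94 ± 0.54, with edgeR adjusted p-values of 0.413 to 0.543. The 2 heterozygous HSC libraries differed widely between themselves, with Top2a at 275 and 49.996 CPM. Without heterozygous HSC library 1, Top2a and Cdca3 passed as lower in heterozygotes, against 0.222% of all genes lower, and without wild type HSC library 2 the Top2a difference turned to 0.37. Without the wells holding erythroid markers 0 of 33 members passed, against a background of 0.046% higher and 0% lower.

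In plate2, where libraries were deeper, the intervals were narrower. Cks1b differed by 0.53 ± 0.34 (95% interval -0.13 to 1.19), Dlgap5, a spindle protein, by 0.64 ± 0.44 (-0.23 to 1.51), Tmpo by -0.32 ± 0.27 (-0.84 to 0.20), Cks2 by 0.49 ± 0.42 (-0.34 to 1.32) and Ccnb1 by -0.49 ± 0.43 (-1.33 to 0.35). None of the 5 passed, each with an edgeR adjusted p of 0.997. These intervals include 0 and reach from -1.33 to 1.51 on the log2 scale, so they do not show equal levels. Over both sets, Tmpo had the smallest p, at -0.58 ± 0.23 (edgeR adjusted p 0.695), followed by Dlgap5 at 0.69 ± 0.41, Cks1b at 0.53 ± 0.31, Hmmr at 0.62 ± 0.41 and Cenpf at -0.52 ± 0.34.

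Whether the effect of the genotype differed between the sets was tested with an interaction term. No member passed by edgeR or DESeq2, 1 had an unadjusted p under 0.05, against 9.22% of all genes, and no gene of 6678 passed, a background of 0%. The smallest p belonged to Ckap5 (-2.90 ± 1.29), Cdca3 (1.72 ± 0.92), Anp32e (-0.86 ± 0.52), Kif23 (-1.57 ± 0.97) and Aurkb (2.37 ± 1.497), with edgeR adjusted p-values of 0.516 to 0.644. Without heterozygous HSC library 1, Cdca3 passed, against 0.152% of all genes higher.

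In the random draw used, the share of wells with 3 or more member transcripts of 1000 gave no clear order of the genotypes either. In HSC libraries it was 16.0% and 17.4% in wild type and 23.5% and 14.9% in heterozygous libraries. In plate2 it was 33.3% and 24.4% in wild type and 33.3% and 56.5% in heterozygous libraries, and heterozygous library 2 alone exceeded the 2 wild type values. The plate2 order depended on the draw and the cut. Shares expected over all possible draws put both heterozygous plate2 libraries (37.2% and 48.9%) above both wild type ones (30.8% and 32.3%). Drawn shares at 5 or more transcripts did so too (26.7% and 32.6% against 16.7% and 14.6%). Expected HSC shares at 3 or more had no such order (heterozygous 19.7% and 11.8%, wild type 16.9% and 16.0%). No test was made of these shares.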

How the data were processed

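CEL-Seq2 tables of 8 libraries were used. Per the submitters' processing notes, BWA 0.6.2-r126 and mm10 were used. The read counter is not named. The deposited values appear to be estimated counts of transcripts, with the number of distinct molecular barcodes corrected for collisions. This is inferred from the values and is not stated in the labels. They were summed per library over kept wells and rounded, and 70 spike-in rows were left out. A well was kept at 1000 or more transcripts among its library's own 96 barcodes, and 0 columns of other samples were present. Doublets were not called, since wells are sorted single cells.

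Libraries were grouped by title and genotype label. The two-sided quasi-likelihood test of edgeR 4.0.16 (R 4.3.3), after filterByExpr and TMM scaling, with Benjamini-Hochberg adjustment and a threshold of 0.05, was fitted to all 8 libraries as 4 groups, and the genotype over both sets with the set as a term. DESeq2 1.42.0 was an alternative, with RLE scaling, no filter, other well minimums, thinning, a replicate block and left-out libraries. The edgeR test was run on simulated counts for the comparison of sets in wild type cells and of genotypes in plate2 only. Replicates differed beyond sampling noise, with chi-square per degree of freedom of 2.23 to 4.47. Wells were thinned once to 1000 transcripts, and shares carry exact Clopper-Pearson 95% intervals, which cover counting error only. A well holding markers has 5 or more of a list's transcripts of 1000.

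The 43 genes and all gene lists were chosen with earlier results of these data known. Genes named with values in every library passed in some comparison or were among the 12 most abundant members. For comparisons where fewer than 5 passed, the 5 of smallest p are given.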

Additional observations from a re-analysis of the deposited data

Results flagged for a closer look

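Transcripts of the 43 genes were also counted in the 96 barcodes of each library that were left out of all comparisons. These barcodes held 30 and 43 member transcripts in wild type HSC libraries 1 and 2 and 39 and 27 in heterozygous HSC libraries 1 and 2. They held 166 and 105 in wild type plate2 libraries 1 and 2 and 91 and 59 in heterozygous plate2 libraries 1 and 2. Each value exceeds the 3 counts that a count of 0 allows. Of these left-out barcodes, 19 held 1000 or more transcripts.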

How the results depend on the processing

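The numbers of members higher in plate2 (5 in wild type, 13 in heterozygous cells) became 3 and 3 with DESeq2 (1.61% and 1.91% of all genes higher), 1 and 2 of 5 with wells thinned to 1000 transcripts (20.7% and 12.5%), and 22 and 25 without HSC wells holding erythroid markers (14.1% and 15.4%), a setting chosen after seeing the data. The wells left out in that last setting were rich in member transcripts, so its rise is no independent test of the members. With wells of at least 2000 transcripts the wild type number was 2 (5.23%). Leaving out each library in turn gave 1 to 7 in wild type and 3 to 20 in heterozygous cells, 0 to 2 for the genotype in HSC and 0 to 1 for the difference of genotype effects. With the replicate number as a block, 5 and 14 members passed (10.6% and 13.4%). The numbers do not show pairing: the differences between same-numbered HSC libraries correlated at -0.088 over 2 pairs. The genotype difference of Top2a in HSC ran from -2.59 to 0.37 with a library left out, turning only without wild type HSC library 2, and the fitted interaction of Cdca3 was -4.75 without wells holding erythroid markers, where Cdca3 is at 0 in the wild type HSC libraries, so that this value is no measure of a change. The 18 single-gene results that passed between the sets (5 in wild type and 13 in heterozygous cells) were followed over 287 alternatives. Of these, 59 lost the threshold and none reversed. The 20 genotype and interaction results never passed, so they had no call to lose, and over 332 alternatives 2 gained it and 2 reversed. The cause was not tested.

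The share of wells with a member transcript was 88.9%, 88.1%, 86.4% and 92.6% at 2000 transcripts (HSC wild type and heterozygous, then plate2 wild type and heterozygous). It was 16.7%, 19.3%, 29.5% and 45.1% at 3 or more transcripts and 7.29%, 6.67%, 15.8% and 29.7% at 5 or more. The member share of wild type HSC transcripts was 0.416% in wells of at least 2000 transcripts, 0.149% as a mean over wells, 0.133% without wells holding erythroid markers and 0.101% when the richest well then left in each library was also left out. As a mean over wells it was 0.263% in wild type and 0.325% in heterozygous plate2. The range of shares over plate2 positions was 16.1 percentage points in blocks of 12, 34.0 in blocks of 8, 55.6 in cycles of 12 and 36.0 in cycles of 8. HSC libraries hold few member transcripts, 217 to 871 each, which limits every comparison that includes them.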
